A study of Mus musculus with 2 samples.

Results

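Translation initiation factors are the proteins that bring the small ribosomal subunit, the initiator tRNA and the mRNA together at the start codon. The genes described here are those whose symbol, on the array or as the current name of the array's RefSeq identifier, starts with Eif and a number. This rule takes 129 probes for 57 of the 22011 named genes on the arrays and uses no measured value. It also takes in the 4 Argonaute genes, whose array names start with Eif2c and whose proteins act in RNA silencing, and they are kept apart below.

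Every sample was RNA of G1E-ER-GATA-1 cells, a GATA-1-null mouse erythroid line derived from embryonic stem cells that carries a GATA-1 fusion activated by estradiol. One arm received LMO2 siRNA and the other control siRNA, and both arms were given β-estradiol for 24 h, so there was no arm without estradiol. Each of 2 two-colour arrays carried both arms, LMO2 siRNA in Cy3 and control siRNA in Cy5, so a dye effect and the siRNA effect cannot be told apart. The labels number the arrays as replicates but do not say that they came from separate cultures, and a p-value here measures the spread between these arrays alone, which may be technical.

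Initiation proceeds in ordered steps, and the members are described in that order. eIF1 and eIF1A help the small subunit scan for the start codon, eIF2 delivers the initiator tRNA, and eIF2B recharges eIF2 with GTP. Kinases that phosphorylate the alpha subunit of eIF2 block that recharging, and the heme-regulated kinase HRI, encoded by Eif2ak1, is known for matching globin synthesis to heme supply in red cell precursors. eIF3 is the large scaffold on the small subunit, eIF4F binds the mRNA cap, the 4E-BPs hold back the cap-binding subunit eIF4E, and eIF5 and eIF5B act at start codon choice and subunit joining.

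Between 55.8% and 68.2% of gene spots were well above background in a channel. A gene was measured by its brightest probe that was unsaturated and well above background in at least 1 channel, which gave 14141 genes, 53 of them initiation factor members. Eif2s3y and Eif4e3 had no probe well above background, and the only probes of Eif3g and Eif3l reached saturation in the Cy5 channel of each array and are given no fold. Eif1 has a further probe set apart for the same reason. Values are log2 ratios of LMO2 siRNA over control siRNA, given as mean ± SD of the 2 arrays (n = 2), whose number limits the precision. Lmo2, the target of the siRNA, had ratios of -1.82 and -2.02 on the arrays, a 3.77-fold lower level. All 10 erythroid marker genes on the array were well above background in both channels. The labels call the cells embryonic stem cells, and of 8 pluripotent stem cell markers on the array 5 were well above background in at least 1 channel and 4 in both, Pou5f1 among the 5, while Nanog, Sox2 and Zfp42 were not. Of those 5, Dppa5a was called higher (0.38 ± 0.06), also in all 3 tests under the stricter filter described below, and 4 were called neither way. Markers of other lineages went in both directions. Of 7 measured megakaryocyte genes 2 were called higher (Gp1ba at 1.18 ± 0.05 and Gp5 at 0.62 ± 0.01), 1 lower (Gp9 at -0.31 ± 0.05) and 4 neither. Of 4 measured mast cell genes Hdc (1.22 ± 0.08) and Cpa3 (0.37 ± 0.13) were called higher, while Fcer1a (-0.03 ± 0.00) and Tpsb2 (0.01 ± 0.07) were not called, and after position correction Fcer1a was called lower at -0.20 and Tpsb2 higher at 0.15. After that correction 4 of the 7 megakaryocyte genes were called higher and 1 lower. The shares over all genes were 23.8% higher and 27.8% lower with loess, and 23.3% and 21.1% with position correction. Of 6 measured granulocyte and macrophage genes Cd68 (0.55 ± 0.05) and Ltf (0.16 ± 0.02) were called higher with loess, 0 lower and 4 neither. Of 6 measured lymphocyte genes Ptprcap (0.15 ± 0.16) was called higher, Cd3e (-0.34 ± 0.14) and Dntt (-0.23 ± 0.07) lower, and 3 neither. With position correction 2 of the granulocyte and macrophage genes were higher and 1 lower, and 0 and 1 of the lymphocyte genes. The part of these markers in the results below was not tested.

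The differences of the initiation factor genes between the arms were small. Their log2 ratios ran from -0.68 to 0.45, with a median of -0.09 against -0.02 over all genes. No member differed 2-fold on both arrays, and 97 of all 14141 genes did. The median size of a member's difference, without its sign, was 0.21 against 0.14 over all genes, and it became 0.10 against 0.13 once the signals were corrected for spot position with the scanner's own position ratio. The members were also brighter, with a median log2 intensity over both channels of 12.2 against 9.02 over all genes. The part of brightness in these sizes and in the shares called below was not tested. Eif3b, Eif3j1, Eif3k and Eif2ak1 had the lowest ratios, and Eif5a, Eif2b5, Eif4g3 and Eif3m had the highest. The ratio had the same sign on both arrays for 48 of the 53, against 11613 of all 14141 genes.

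In limma's test against 0 with Benjamini-Hochberg adjustment over all genes at 0.05, 15 members were called higher and 23 lower. The same test called 23.8% of all genes higher and 27.8% lower, against 28.3% and 43.4% of the members. With position correction 8 members (15.1%) were called higher and 11 (20.8%) lower, against 23.3% and 21.1% of all genes. With each array centred on its median in place of loess, 0 were called higher and 51 lower, against 2.64% and 65.2% of all genes, whose median was itself -0.41. Called in the same direction both with and without position correction were 7 members higher and 9 lower, against 14.6% and 13.5% of all genes. No member was called in opposite directions with and without position correction, and only 128 of all 14141 genes were.

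The verbs rose and fell are kept for genes called in the same direction with loess, with position correction and with the scanner's processed signals. By that rule no member rose and no member fell, against 4.7% and 1.89% of all genes, while 13 of the 53 (24.5%) had an unadjusted limma p under 0.05 and 1 direction in all 3 tests, against 25.8% of all genes. This count of 0 changes with the filter on dim probes. When both channels had to be well above background on both arrays, 52 members and 12977 genes were tested, and 4 members rose and 3 fell, against 11.1% and 8.22% of those genes. The 4 were Eif2b2, Eif4g3, Eif5a and Ago2, and the 3 were Eif3b, Eif2s2 and Eif2ak1. The genes left out by that filter are dim ones, and the prior degrees of freedom of the processed signals went from 2.2 to 3.05 without them.

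**Figure D1:**
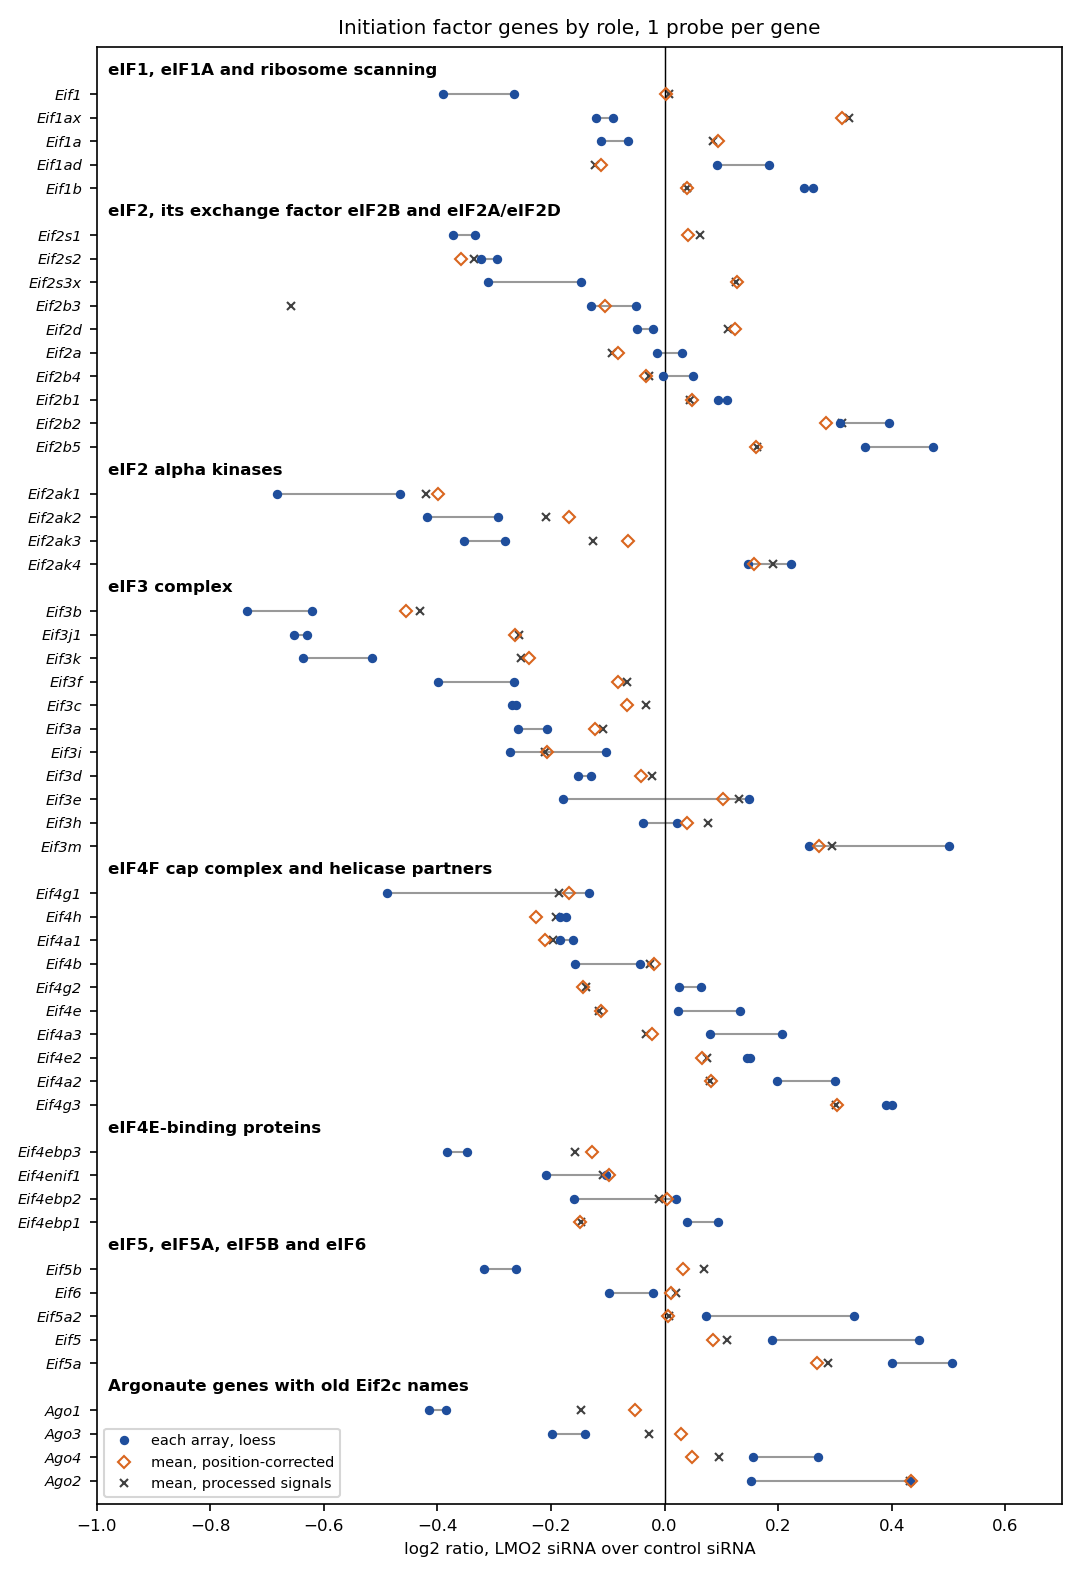
Log2 ratio of LMO2 siRNA over control siRNA for the 53 measured genes, grouped by role, with 1 brightest probe per gene. Filled points are the 2 arrays after loess and the line joins them, open diamonds are the mean after position correction and crosses the mean of the processed signals. Many values move toward 0 or across it after position correction, such as Eif1 from -0.33 to 0.00, and centring on the array median in place of loess puts every member called higher below 0.

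The proteins behind these 7 genes stand at different steps. Eif3b encodes the RNA-binding core subunit of eIF3. Its normalized intensity was 33947 and 29352 in the control arm and 22071 and 17633 after LMO2 siRNA. Both LMO2 siRNA values were below both control values, a difference of -0.68 ± 0.08 (limma adjusted p = 1.19e-10) and of -0.46 ± 0.05 after position correction (limma adjusted p = 6.89e-05). The processed signals gave -0.43, with a limma adjusted p of 0.0534 over all genes and 0.0227 over those with both channels well above background.

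Eif2ak1, the gene of HRI, had intensities of 3493 and 3491 in the control arm and 2529 and 2175 after LMO2 siRNA, so the arms did not overlap. The difference was -0.57 ± 0.15 (limma adjusted p = 5.95e-09), and -0.40 ± 0.14 after position correction. In the processed signals it was -0.42, with an adjusted p of 0.071 in limma and 0.0346 over the genes with both channels well above background.

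Eif2s2 encodes the beta subunit of eIF2. Control intensities were 23824 and 22164, and those after LMO2 siRNA were 19032 and 18058, again without overlap. Its difference of -0.31 ± 0.02 was nearly the same after position correction, -0.36 ± 0.01, and in the processed signals, -0.34.

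Among the genes that were higher, Eif5a encodes a factor that helps ribosomes through difficult peptide bonds and carries the amino acid hypusine. Its intensity was 9893 and 8267 in the control arm and 14046 and 10915 after LMO2 siRNA. The difference was 0.45 ± 0.07 with loess, 0.27 ± 0.06 after position correction and 0.29 in the processed signals.

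Eif4g3, a scaffold of the cap-binding complex, had control intensities of 2013 and 2207 and 2637 and 2914 after LMO2 siRNA. Its difference of 0.40 ± 0.01 became 0.30 ± 0.01 after position correction. Eif2b2, the beta subunit of eIF2B, had 23166 and 17721 in the control arm and 28709 and 23310 after LMO2 siRNA. The lower LMO2 siRNA value lay just above the higher control value, and the ratios of the arrays were 0.31 and 0.40. Ago2, the Argonaute that cuts its target RNA, had 1721 and 1583 against 1913 and 2137, and its arrays differed more, with ratios of 0.15 and 0.43.

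With median centring Eif5a, Eif4g3, Eif2b2 and Ago2 were at -0.27, -0.24, -0.41 and -0.32. Relative to the median of all genes under that centring, Eif5a stood 0.14 higher, Eif4g3 0.17 higher and Ago2 0.09 higher, and Eif2b2 was level with it. Eif3b, Eif2ak1 and Eif2s2 stood further below it, by -1.04, -0.81 and -0.66.

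**Figure D2:**
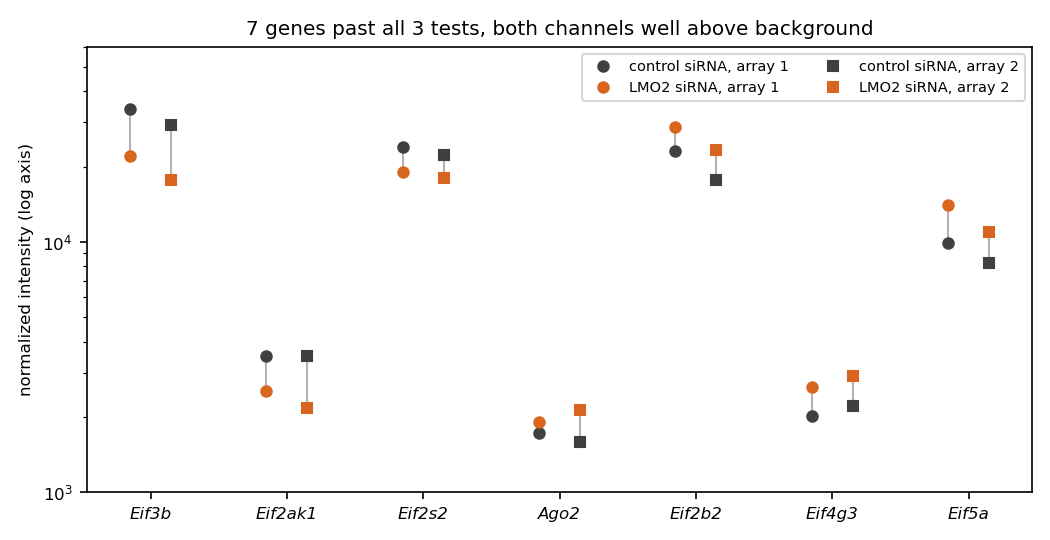
Normalized intensity on a log axis for the 7 members called the same way in all 3 tests when both channels were well above background. Dark symbols are control siRNA and orange symbols LMO2 siRNA, with circles for array 1, squares for array 2 and a line joining the arms of an array. Eif3b, Eif2ak1 and Eif2s2 are lower after LMO2 siRNA on both arrays and the other 4 higher. The higher direction of those 4 turns below 0 when arrays are centred on their median in place of loess.

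GATA-1 binds GATA sites and the LMO2 complex can bridge GATA sites and E-boxes, so promoters of 5 of the 7 members called in all 3 tests under the stricter filter are shown. Eif5a, listed with 6 starts of which 4 hold an E-box and 0 a GATA motif, and Ago2 are not shown. The sequences are the 250 bases upstream of the RefSeq start in assembly GRCm38.p6, 5′ to 3′ on the strand of the gene. Capitals mark the GATA motif and the E-box CANNTG, which reads the same on both strands. The GATA motif was searched on both strands in the form AGATAA, in the form AGATAG, in the form TGATAA and in the form TGATAG. No match overlapped another in the windows shown. Eif3b lies on the plus strand at chr5:140419055-140419304, Eif2ak1 on the plus strand at chr5:143817542-143817791 and Eif2s2 on the minus strand at chr2:154892907-154893156. Eif2b2 lies on the plus strand at chr12:85219231-85219480, Eif4g3 on the plus strand at chr4:137993205-137993454 and Eif4a1 on the minus strand at chr11:69672424-69672673. Eif4a1 is shown because its promoter holds both motifs and its ratio was called lower with and without position correction.
Eif3b: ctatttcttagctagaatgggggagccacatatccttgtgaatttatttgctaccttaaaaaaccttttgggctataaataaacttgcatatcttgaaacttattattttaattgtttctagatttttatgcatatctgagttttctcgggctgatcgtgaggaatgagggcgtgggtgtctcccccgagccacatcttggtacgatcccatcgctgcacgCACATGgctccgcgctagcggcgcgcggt
Eif2ak1: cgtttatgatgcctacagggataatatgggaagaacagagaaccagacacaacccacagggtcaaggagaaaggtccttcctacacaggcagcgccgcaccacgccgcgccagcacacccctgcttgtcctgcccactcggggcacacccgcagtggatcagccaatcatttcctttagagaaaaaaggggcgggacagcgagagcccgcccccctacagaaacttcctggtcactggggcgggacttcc
Eif2s2: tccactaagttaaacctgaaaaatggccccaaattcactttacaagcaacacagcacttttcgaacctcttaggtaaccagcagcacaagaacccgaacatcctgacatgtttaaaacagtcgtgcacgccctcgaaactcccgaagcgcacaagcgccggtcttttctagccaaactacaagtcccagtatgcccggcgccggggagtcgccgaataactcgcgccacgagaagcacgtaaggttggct
Eif2b2: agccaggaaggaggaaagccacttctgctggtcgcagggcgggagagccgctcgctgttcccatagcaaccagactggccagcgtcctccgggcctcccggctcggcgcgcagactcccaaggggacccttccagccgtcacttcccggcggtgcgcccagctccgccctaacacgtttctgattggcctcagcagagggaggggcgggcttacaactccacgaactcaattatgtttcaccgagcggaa
Eif4g3: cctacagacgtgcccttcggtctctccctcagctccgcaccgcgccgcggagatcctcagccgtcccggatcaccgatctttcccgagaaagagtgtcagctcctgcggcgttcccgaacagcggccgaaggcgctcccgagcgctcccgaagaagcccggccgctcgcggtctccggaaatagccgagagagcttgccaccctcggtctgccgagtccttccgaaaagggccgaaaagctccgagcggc
Eif4a1: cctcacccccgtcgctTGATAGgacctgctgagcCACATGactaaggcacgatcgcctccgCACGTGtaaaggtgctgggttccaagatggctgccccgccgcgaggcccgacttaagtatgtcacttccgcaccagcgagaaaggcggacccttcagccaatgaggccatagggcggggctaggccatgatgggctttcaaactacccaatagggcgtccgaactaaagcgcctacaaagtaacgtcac

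In these windows Eif3b holds 1 E-box, Eif4a1 holds 1 GATA motif and 2 E-boxes, and the other 4 windows shown hold neither motif. RefSeq promoters were listed for 46 of the 57 members, at 60 starts. A GATA motif was found in 4 of the 60 (6.67%), those of Eif3c, Eif3l, Eif4a1 and Eif4e, against 26.5% of 32851 promoters of the same length. An E-box was found in 26 of the 60 (43.3%) against 66.2% of all. A match describes the letters in this window and is not a binding site.

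The 5 genes of the scanning factors showed no shared direction. Eif1b (0.25 ± 0.01) and Eif1ad (0.14 ± 0.07) were called higher by the loess test and Eif1 (-0.33 ± 0.09) lower, while Eif1a and Eif1ax passed in neither direction. None of the 3 calls held after position correction, where Eif1b was at 0.04, Eif1ad at -0.11 and Eif1 at 0.00. Eif1ax, the X-linked gene of eIF1A, went the other way: it was at -0.11 ± 0.02 with loess and at 0.31 ± 0.08 after position correction, where limma called it higher (adjusted p = 0.00107). Its 2 probes lie in rows 11 and 15 of the array and gave 0.31 each after correction. In the processed signals Eif1ax was at 0.32.

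Of the 10 measured genes of eIF2, eIF2B, eIF2A and eIF2D, 2 were called higher and 3 lower with loess. The shares over all genes were 23.8% and 27.8%. By their brightest probes the 3 subunits of eIF2 were all lower with loess: Eif2s1 at -0.35 ± 0.03, Eif2s2 at -0.31 ± 0.02 and Eif2s3x at -0.23 ± 0.12. After position correction Eif2s1 was at 0.04 and Eif2s3x at 0.13, and Eif2s2 alone of them was still called lower. The further used probe of Eif2s1 gave 0.36 with loess and 0.19 after correction. Those of Eif2s3x gave 0.21 and 0.12 with loess and -0.02 and -0.04 after correction. Those of Eif2s2 gave -0.56 and 0.09 with loess and -0.16 and -0.14 after correction. Among the genes of the exchange factor eIF2B, Eif2b2 and Eif2b5 were called higher with and without position correction. Eif2b5, which encodes the catalytic epsilon subunit, gave 0.41 ± 0.08 with loess and 0.16 ± 0.08 after correction. Eif2b1 and Eif2b4 lay within 0.11 of 0 in every one of these values. Eif2b3 was the only member called by the processed signals over all genes (-0.66, limma adjusted p = 0.0414), but its probe was dim, with normalized intensities of 75.6 to 91.6, and gave -0.09 ± 0.06 with loess.

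The 4 eIF2 alpha kinases split into 3 called lower and 1 higher with loess, against 27.8% and 23.8% of all genes. Eif2ak2, the gene of the double-stranded RNA-activated kinase PKR, gave -0.36 ± 0.09 and Eif2ak3, the gene of the endoplasmic reticulum kinase PERK, -0.32 ± 0.05. After position correction Eif2ak2 was at -0.17 and still called, and Eif2ak3 was at -0.06 and was not. Eif2ak4, the gene of the amino acid sensor GCN2, was higher at 0.18 ± 0.05 and 0.16 ± 0.05. Further probes of these genes did not all follow: for Eif2ak1 the 4 used probes gave -0.40, -0.20, -0.11 and 0.12 after correction.

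Phosphorylated eIF2 alpha favours translation of the transcription factor ATF4, whose target genes act in amino acid supply and stress. In a list of the eIF2 alpha phosphatase subunits and ATF4 response genes, 11 of the 16 genes on the array were measured. Of the 11, 9 were called lower and 0 higher with loess, where 27.8% and 23.8% of all genes were. With position correction 6 were lower and 0 higher, where 21.1% and 23.3% of all genes were. Atf5, a related factor under the same translational control, was at -0.39 ± 0.08 with loess and at -0.56 after position correction. Nupr1, a stress-induced chromatin protein, was at -0.19 ± 0.01 and -0.43. These 2 genes fell in all 3 tests. Trib3, a pseudokinase that ATF4 induces, gave -0.61 ± 0.20 and -0.45, and Ddit3, the gene of the stress factor CHOP, -0.28 ± 0.10 and -0.50. Atf4 itself was at -0.30 ± 0.03 and -0.16. Of the 10 list genes with both channels well above background, 5 fell, against 8.22% of all genes under that filter. The 5 were Atf5, Ddit3, Trib3, Cebpg and Nupr1. The phosphatase subunit gene Ppp1r15b was called lower with loess only, at -0.37 ± 0.08 and -0.12.

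**Figure D3:**
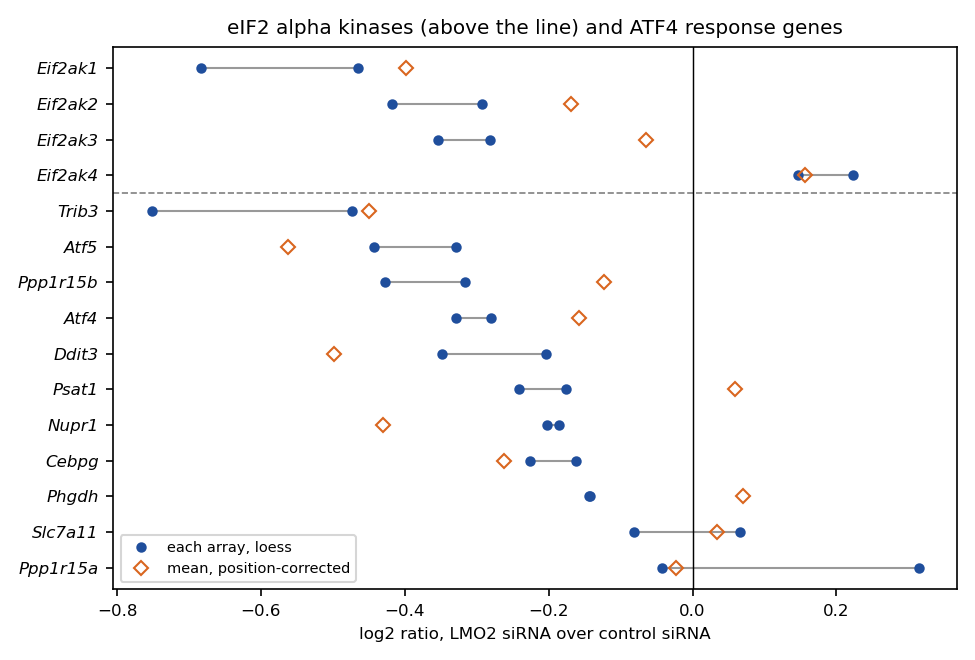
Log2 ratio of LMO2 siRNA over control siRNA for the 4 eIF2 alpha kinases, above the dashed line, and the 11 measured genes of the ATF4 response list, below it. Filled points are the 2 arrays after loess and open diamonds the mean after position correction. Atf5, Ddit3 and Nupr1 lie further below 0 after the correction, and Psat1 and Phgdh cross 0.

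By the brightest probe of each gene, the lowest loess ratios were those of eIF3 subunits. Among 11 measured subunit genes the loess test called 8 lower and 1 higher, against 27.8% and 23.8% of all genes. The median of the subunits was -0.23. After position correction 4 of them were lower and 1 higher, with a median of -0.08, where 21.1% and 23.3% of all genes were called lower and higher. The 4 were Eif3b, Eif3j1, Eif3k and Eif3i. Eif3j1 encodes a loosely bound subunit near the decoding centre. The intensity of its brightest probe was 14356 and 13390 in the control arm and 9283 and 8520 after LMO2 siRNA. That probe, in row 19, gave -0.64 ± 0.02 with loess and -0.26 ± 0.07 after correction. The other used probes of Eif3j1 did not share a sign, at -0.07 and 0.04 with loess and -0.18 and 0.18 after correction. Eif3k gave -0.58 ± 0.09 and -0.24 ± 0.02, and Eif3i -0.19 ± 0.12 and -0.21 ± 0.13. Both Eif3j1 and Eif3k missed the processed-signal threshold when both channels were well above background, with limma adjusted p of 0.0567 and 0.0505. Eif3m was the only subunit called higher, at 0.38 ± 0.17 and 0.27 ± 0.17. Its control intensities were 13049 and 11314 and those after LMO2 siRNA 15572 and 16011. Eif3a, Eif3c, Eif3d and Eif3f were called lower by loess only and lay between -0.12 and -0.04 after correction. Further used probes of Eif3c gave 0.12, 0.38 and 0.50 with loess and -0.001, 0.24 and 0.40 after correction. Those of Eif3a gave -0.08 and 0.00 with loess and 0.21 and 0.09 after correction, and that of Eif3d -0.07 in both. Eif3e and Eif3h had opposite signs on the 2 arrays. A further probe of Eif3e gave 0.13 with loess and 0.39 after correction.

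The cap complex and its helicase partners showed 4 genes called higher, 3 lower and 3 neither of 10 with loess. Over all genes the same test called 23.8% higher and 27.8% lower. Eif4a1, the gene of the main RNA helicase, and Eif4h, the gene of a helicase cofactor, were called lower with and without position correction. Eif4a1 was at -0.17 ± 0.01 and -0.21 ± 0.01. Eif4h was at -0.18 ± 0.01 and -0.23 ± 0.00. All 3 probes of Eif4a1 were below 0 in each of the loess, position-corrected and processed values, at -0.50, -0.21 and -0.20 after correction. Eif4g1, the main scaffold, was called lower with loess, but its arrays gave -0.13 and -0.49. The higher calls of Eif4a2, Eif4a3 and Eif4e2 did not hold after correction, and of the 4 only Eif4g3 was called in both. Eif4e, the gene of the cap-binding protein, was at 0.08 ± 0.08 and -0.11 and passed in neither. Eif4g2, the gene of a scaffold that does not bind eIF4E, was called lower only after correction, at -0.14.

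Of the 4 genes for proteins that bind eIF4E, 2 were called lower and 0 higher with loess, against 27.8% and 23.8% of all genes. Eif4ebp3 gave -0.37 ± 0.03 and Eif4enif1, the gene of a shuttling protein, -0.16 ± 0.07, and neither was called after correction. Eif4ebp1, the best known mTOR substrate among them, was at 0.07 ± 0.04 with loess and at -0.15 ± 0.05 after correction, where it was called lower. Eif4ebp2 was at -0.07 ± 0.13.

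Among the late factors 3 of 5 were called higher and 1 lower with loess, against 23.8% and 27.8% of all genes. Eif5 (0.32 ± 0.18) and Eif5a2 (0.20 ± 0.18) varied between the arrays and were not called after correction, at 0.09 and 0.01. Eif5b, the factor of subunit joining, was at -0.29 ± 0.04 with loess and 0.03 after correction. Eif6, which keeps free large subunits apart, was at -0.06 ± 0.05. In the Argonaute genes Ago2 and Ago4 were called higher and Ago1 and Ago3 lower with loess, and only Ago2 was called after correction.

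The loess ratios of the members followed the row in which a probe was printed. Over the 114 used probes of the members, the loess ratio had a correlation of r = 0.67 with the spot row, and the position-corrected ratio r = -0.01. The probes share 2 arrays and 1 position gradient. Of the 40 probes in rows 11 to 163, 35 were below 0 with loess, and of the 37 in rows 359 to 528, 6 were. After correction 19 of the 40 and 17 of the 37 were below 0. Over all 24365 used probes the correlation was r = 0.48 with loess and r = -0.12 after correction.

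**Figure D4:**
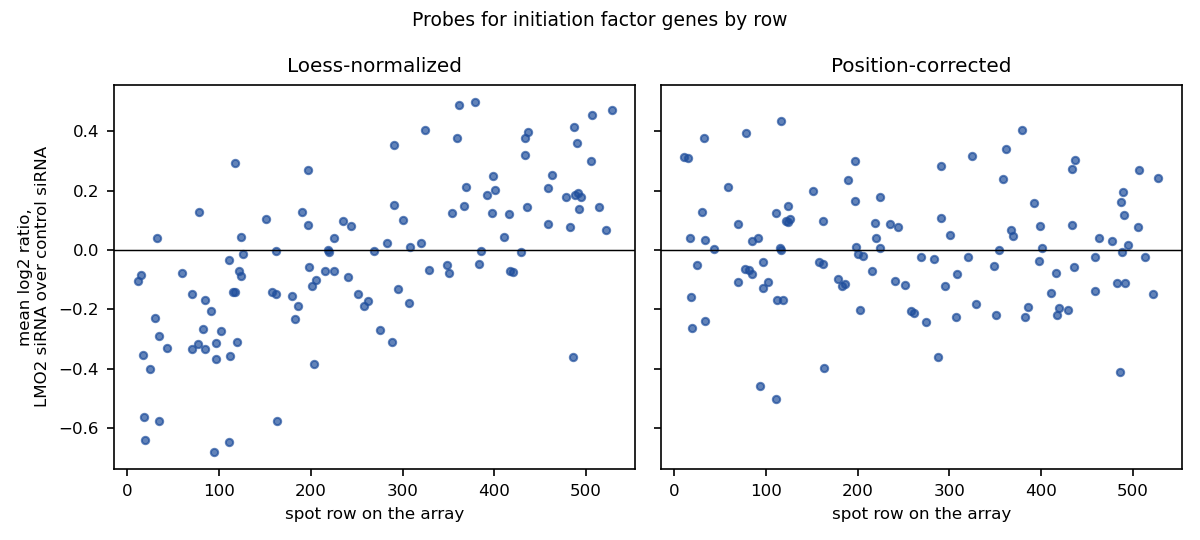
Mean log2 ratio of LMO2 siRNA over control siRNA against spot row for the 114 used probes of initiation factor genes, after loess on the left and after position correction on the right. The loess values climb from the first rows to the last (r = 0.67), and the corrected values do not (r = -0.01).

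Different probes of 1 gene were compared with each other. For 37 members with more than 1 used probe, the probes differed in sign in 26 with loess and in 18 after position correction. The median distance between a gene's lowest and highest probe was 0.32 with loess and 0.21 after correction, against a median size of a member's ratio of 0.21 and 0.10. Eif5b had the widest spread with loess, 0.80 between its probes. Eif3b had 1 probe in row 94 at -0.68 and another in row 416 at 0.12, and after correction they gave -0.46 and -0.08. The 3 probes of Eif2s2 gave -0.36, -0.16 and -0.14 after correction, the 2 probes of Eif5a 0.27 and 0.38, and the 2 of Eif4g3 0.30 and 0.20. The 3 probes of Ago2 did not share a sign, at 0.43, -0.02 and -0.12. In 6 genes all used probes had 1 sign in all 3 sets of values: Eif3d, Eif4a1, Eif4g1, Eif4g3, Eif5a and Eif5a2. Eif2b2 has 1 used probe.

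**Figure D5:**
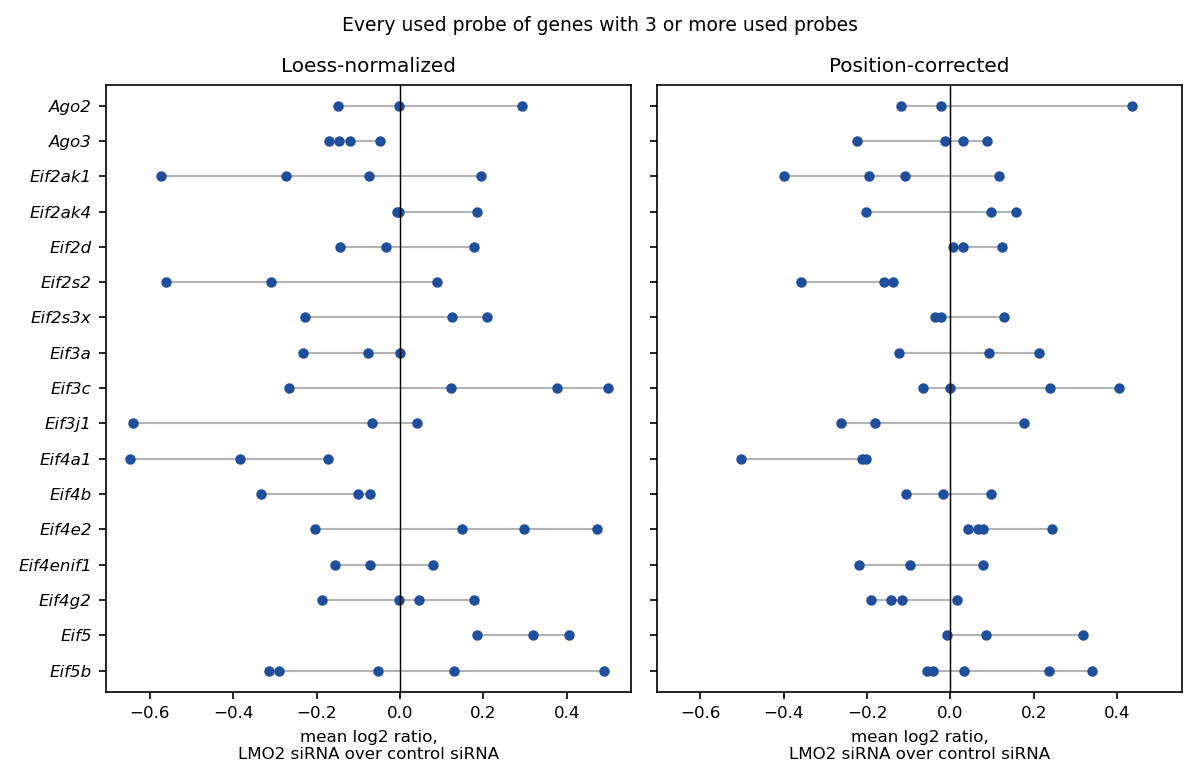
Mean log2 ratio of every used probe for the members with 3 or more used probes, after loess on the left and position correction on the right, with a line joining the probes of a gene. All 3 probes of Eif4a1 lie below 0 on both sides, and those of Eif2s2 do after correction, whereas the probes of most other genes lie on both sides of 0.

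Other genes of the translation machinery were also called in both directions. Over all genes 23.8% were called higher and 27.8% lower with loess, and 23.3% and 21.1% after position correction. Of 9 measured genes listed with the elongation and termination factors, 2 were called higher and 4 lower with loess, and 2 higher and 3 lower after position correction. In that list Eef1d (-0.35 ± 0.00), Eef1g (-0.32 ± 0.02) and Eef1e1 (-0.29 ± 0.05) were lower in both tests, and the termination factor gene Gspt1 (0.23 ± 0.10) higher in both. A brighter probe of Eef1g was saturated and set apart, and with saturated probes kept the ratio of Eef1g was above 0. Of 22 measured genes for poly(A)-binding proteins and other initiation partners, 6 were higher and 8 lower with loess, and 5 and 4 after correction. The largest were Abcf3 (-0.44 ± 0.21), Mcts1 (0.42 ± 0.12), Pabpc4 (-0.39 ± 0.17) and Pdcd4 (0.39 ± 0.22), and Mcts1 and Pabpc4 were called in both tests. Of 15 measured genes of mTOR and MNK signalling, 5 were higher and 6 lower with loess, and 2 and 4 after correction. Tsc1 (-0.55 ± 0.10), an inhibitor of mTOR complex 1, Mknk1 (-0.42 ± 0.00), a kinase of eIF4E, and Rps6kb1 (0.41 ± 0.11), the S6 kinase gene, were called in both tests. Tsc2 (-0.40 ± 0.09) was at 0.00 after correction.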

How the data were processed

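The 2 arrays were two-colour Agilent mouse arrays of total RNA, read with Agilent Feature Extraction 9.1.3.1, per the file headers. The deposited files hold each spot's intensity per channel on a linear scale, its log10 ratio of red over green and a p-value of that ratio, which was not used. They also hold the scanner's multiplicative position ratio, per the file headers. The series' own deposited table equals these log10 ratios within 0.00500 for all 45018 spots. A genome build for the array was not given in the sources. Both arrays share a slide and scan.

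Mean signals were corrected by normexp with an offset of 50 in limma 3.58.1 under R 4.3.3, and loess followed, in which control spots had weight 0. The other 43379 spots form 41174 probes, named by RefSeq accession (24844), by a current or older symbol, or by the array's symbol. Genes were tested against 0 with lmFit and eBayes, with 1 residual and 25.6 prior degrees of freedom, so p-values rest mostly on variance pooled over genes. The position-corrected values divide background-corrected signals by the position ratio before loess. Processed signals are the deposited log10 ratios on the log2 scale, centred on the median. Members and gene lists were chosen with earlier results of these data known. Named genes are Lmo2, any measured member, and up to 4 members of each list with the largest ratio; Ddit3, Nupr1, Cebpg, Psat1, Phgdh, Eef1e1 and the marker genes were chosen after their values were seen where they fall outside that rule. Alternatives covered background, normalization, filters, probe summary, prior and each array alone, and the fit was tested on simulated data.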

Additional observations from a re-analysis of the deposited data

How the results depend on the processing

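Calls in the single test changed with the values tested, and the counts that rose or fell changed with the filters. With processed signals 0 were called higher and 1 lower, with the series value table also 0 and 1, with position correction 8 and 11, and with median centring 0 and 51. Calls required with and without position correction became 0 higher and 0 lower when processed signals or the series value table replaced loess, and 0 higher with median centring. With both channels well above background 4 rose and 3 fell, and with saturated probes kept 2 rose (Eif1 and Eif3l) and 1 fell (Eif3b). The control channel of those Eif1 and Eif3l probes was saturated, so their ratios are upper bounds and no direction is read from them. Other counts stayed within 1.5 times. The median ratio was -0.025 with processed signals and with the series value table, -0.019 with position correction, -0.017 with the mean over probes, -0.78 with median centring, -0.067 with saturated spots at weight 0 in loess, -0.071 with no filter on dim probes, -0.059 with saturated probes kept, -0.064 with offset 10, and -0.078 with both channels above background. Each array alone gave -0.10 and -0.091, and a single array allows no test of calls. Each array holds both arms, so the test of its log2 ratio against 0 is already paired by array, and no further pairing was made. Among 70 named genes, those called under loess or the alternative whose log2 ratio changed sign were as follows. With position correction the ratios were Eif5b 0.033, Eif2s1 0.042, Eif1ax 0.31, Eif1 0.0023, Eif4g2 -0.14, Eif2s3x 0.13, Eif4ebp1 -0.15, Eif4a3 -0.022, Eif1ad -0.11, Ago3 0.029 and Tsc2 0.0025. With processed signals they were Eif5b 0.070, Eif2s1 0.063, Eif1 0.0082, Eif2s3x 0.13, Eif4a3 -0.033 and Eif1ad -0.12, and with the series value table the same except that Eif1 was 0.0081. With the mean over probes they were Eif3c 0.18, Eif2s1 0.0029, Eif2s3x 0.034, Eif4ebp1 -0.15, Eif2a -0.13 and Eif1ad -0.00086. With saturated probes kept they were Eif1 0.86 and Eef1g 0.67. With median centring, where all genes had a median of -0.41, they were Eif2b2 -0.41, Eif5 -0.43, Eif3m -0.36, Eif5a -0.27, Eif4e2 -0.57, Eif2b4 -0.69, Eif4g2 -0.66, Eif4ebp1 -0.62, Eif1b -0.43, Eif4e -0.60, Eif4a2 -0.41, Eif2b1 -0.55, Eif4g3 -0.24, Eif4a3 -0.48, Eif2a -0.61, Ago2 -0.32, Eif1ad -0.47, Eif2b5 -0.17, Eif5a2 -0.36, Ago4 -0.26, Eif2ak4 -0.26, Rps6kb1 -0.052, Mcts1 -0.32, Pdcd4 -0.20 and Gspt1 -0.42. Leaving out either array changed the sign of no called gene among them. Leaving out outlier-flagged spots and a robust, trended prior kept every direction and call of those genes. The causes of these changes were not tested beyond what each setting does by construction. Depth here is signal over background, and dim members such as Eif2b3 are limited by it.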
